A study of Mus musculus with 2 samples.

Results

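The genes examined here were chosen by symbol and mostly encode cytochrome c and subunits or assembly factors of respiratory complexes III and IV and of ATP synthase. They were the protein-coding genes of the mouse GENCODE vM1 annotation (build mm9) whose symbol starts with Uqcr, with Cox and a digit, or with Atp5, plus Cyc1 and Cycs. This rule took 54 of 22380 genes. By symbol, 9 were grouped under complex III, 26 under complex IV and 18 under ATP synthase, with Cycs as the remaining member. Taking genes by symbol also brought in Cox4nb, which is not a subunit, and Atp5l-ps1, which is named as a pseudogene. In RNA Pol II ChIA-PET, chromatin held by RNA Pol II is pulled down and neighboring DNA ends are ligated. Each paired-end tag (PET) read from such a ligation was counted as 1 contact between 2 RNA Pol II peaks, called anchors here. A pair of anchors was counted for a gene when an anchor lay within 1 kb of it, once per pair, within and between chromosomes. This gave 1826 pairs of anchors with 1873 PETs in control cells, out of 128267 pairs, and 649 pairs with 666 PETs in Ronin knockout cells, out of 44328 pairs.

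Both groups were mouse ESCs grown on gelatine in serum and LIF, derived from CreERT2 animals crossed with floxed Ronin animals, so the controls also carried the floxed Ronin (Thap11) alleles and the inducible Cre recombinase. Control cells received ethanol and Ronin knockout cells tamoxifen, each for 4 days, so that tamoxifen and Cre activity cannot be told apart from the loss of Ronin. There was 1 library per condition, into which the authors had merged 2 experiments, so no comparison below has a replicate check. Intervals and p-values cover counting error only and compare these libraries, not the conditions.

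Complex III passes electrons from ubiquinol to cytochrome c, complex IV (cytochrome c oxidase) passes them on to oxygen, and ATP synthase uses the proton gradient that these complexes build up to make ATP. Apart from a few subunits encoded by mitochondrial DNA, their proteins come from nuclear genes scattered over the chromosomes. The promoters of such genes are known for binding sites of NRF1, of the ETS factor GABPA and of YY1. Ronin is a transcription factor with a THAP zinc finger that binds the Ronin-binding motif, and the study asked whether contacts between promoters of housekeeping genes depend on it.

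Promoters were searched on both strands from 250 bases before to 50 bases after the annotated start of each gene in the NCBIM37 (mm9) sequence. The exact Ronin-binding motif was found in 1 of 54 members, Atp5o, which encodes the stalk subunit OSCP, and in 210 of all 22380 promoters (0.938%). The NRF1 core GCGCATGCG was found in 8 members (14.8%) against 2.11% of all promoters, namely in Cycs, Uqcr11, Uqcrc1, Cox18, Cox6a1, Atp5g2, Atp5k and Atp5l. The ETS core CCGGAAGT was also found in 8 members (14.8%) against 4.85%, namely in Uqcr11, Uqcrh, Uqcrq, Cox8a, Cox10, Cox15, Cox16 and Atp5h. The YY1 core AAGATGGCG was found in 3 members (5.56%) against 1.91%, namely in Atp5h, Atp5sl and Cox10. These motifs do not overlap one another in the promoters printed here, although the NRF1 core is nearly a palindrome and can match at neighboring positions on both strands. The members therefore held NRF1 and ETS cores more often than all promoters did, as a description of letters and not of binding. With 1 mismatch allowed, the Ronin-binding motif was also found in Uqcr10, Cox7b and Cox7c, so in 4 of 54 members (7.41%) against 2.34% of all promoters.

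The promoters below show the exact Ronin-binding motif (Atp5o), an NRF1 core (Cycs), a pair of ETS cores at the complex IV gene with the most control PETs (Cox8a), and both kinds of core in a complex III gene (Uqcr11). The last 3 were chosen after their values were seen. All 4 genes lie on the minus strand. Sequences run 5′ to 3′ along the gene, with matches to any of the searched motifs in capitals. Atp5o is at chr16:91931883-91932182, Cycs at chr6:50516488-50516787, Cox8a at chr19:7292057-7292356 and Uqcr11 at chr10:79869526-79869825.
Atp5o: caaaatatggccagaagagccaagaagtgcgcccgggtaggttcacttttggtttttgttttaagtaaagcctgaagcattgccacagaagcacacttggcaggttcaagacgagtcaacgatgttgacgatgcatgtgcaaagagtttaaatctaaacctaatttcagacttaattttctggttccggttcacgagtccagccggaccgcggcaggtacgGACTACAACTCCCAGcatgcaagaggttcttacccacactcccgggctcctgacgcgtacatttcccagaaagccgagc
Cycs: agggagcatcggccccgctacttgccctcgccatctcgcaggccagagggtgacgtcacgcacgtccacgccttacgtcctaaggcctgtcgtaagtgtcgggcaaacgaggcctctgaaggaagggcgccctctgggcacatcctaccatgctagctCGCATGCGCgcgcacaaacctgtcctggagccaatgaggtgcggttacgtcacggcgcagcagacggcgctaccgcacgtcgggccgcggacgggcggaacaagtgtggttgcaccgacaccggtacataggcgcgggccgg
Cox8a: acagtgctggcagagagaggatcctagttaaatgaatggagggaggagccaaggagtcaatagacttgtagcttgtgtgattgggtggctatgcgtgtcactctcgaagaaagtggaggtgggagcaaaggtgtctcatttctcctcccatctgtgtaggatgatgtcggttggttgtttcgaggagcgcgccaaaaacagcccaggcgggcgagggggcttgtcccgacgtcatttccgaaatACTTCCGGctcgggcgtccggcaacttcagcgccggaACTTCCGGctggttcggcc
Uqcr11: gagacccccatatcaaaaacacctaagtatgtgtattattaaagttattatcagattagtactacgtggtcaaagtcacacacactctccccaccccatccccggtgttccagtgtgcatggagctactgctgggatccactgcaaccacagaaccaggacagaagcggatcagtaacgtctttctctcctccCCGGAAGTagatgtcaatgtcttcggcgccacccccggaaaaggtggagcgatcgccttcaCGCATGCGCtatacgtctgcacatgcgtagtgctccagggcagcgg
The capitals lie 22 bases before the annotated start in Atp5o and 88 bases before it in Cycs, measured to the center of the match. In Cox8a they lie 2 bases before and 35 bases after the start. In Uqcr11 the ETS core lies 53 bases before and the NRF1 core 8 bases after the start.

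The libraries differed in their total of PETs before any gene was considered. The control library held 156097 PETs and the knockout library 65276, or 41.8% of control (95% interval 41.4 to 42.2). Pairs of 10 or more PETs, only 218 and 171 in number, carried 25160 of the control and 19791 of the knockout PETs, and without them the knockout held 34.7% of control. Each gene and complex below is to be read against these 2 library values. The totals alone cannot tell sequencing depth from a general loss of contacts, and this was not tested. Scaling to equal totals, used below, takes out any change that all genes share. As a check of the label, all 8 ESC markers (Pou5f1, Nanog, Sox2, Zfp42, Klf4, Esrrb, Tdgf1 and Dppa5a) had PETs in both libraries, summing to 735 and 235, and none of 4 fibroblast markers had any. The ESC markers thus stood at 31.97% of control (interval 27.5 to 37.1), under the 41.8% of all PETs. That interval holds the 34.7% found without pairs of 10 or more PETs. Of the 8 markers, 4 had a lower and 4 a higher share of all PETs in the knockout. Zfp42 alone went from 194 to 37 PETs. The 3 primitive endoderm markers had 3 control and 6 knockout PETs and the 3 markers of differentiating cells 14 and 9, and the part of either in the results below was not tested. Thap11 itself had 109 control and 46 knockout PETs, which do not measure the protein, so its loss was not checked here.

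PETs at the members fell to 35.6% of control (interval 32.5 to 38.9). Complex III went from 251 to 95 PETs (37.8%, interval 29.6 to 48.1), complex IV from 503 to 145 (28.8%, interval 23.8 to 34.7) and ATP synthase from 1100 to 421 (38.3%, interval 34.1 to 42.9). Complex IV was the lowest of these values, and its interval lies under the value of all PETs of the libraries, while its upper limit meets the value without pairs of 10 or more PETs. Against all other pairs of anchors the members had an odds ratio of 0.849 for a PET to come from the knockout (interval 0.775 to 0.928, two-sided Fisher's exact test, p = 0.000278). This difference was lost under other ways of counting. By the same exact test, with each pair of anchors counted once the odds ratio was 1.03 (p = 0.532), and without pairs of 10 or more PETs it was also 1.03 (p = 0.463).

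**Figure D1:**
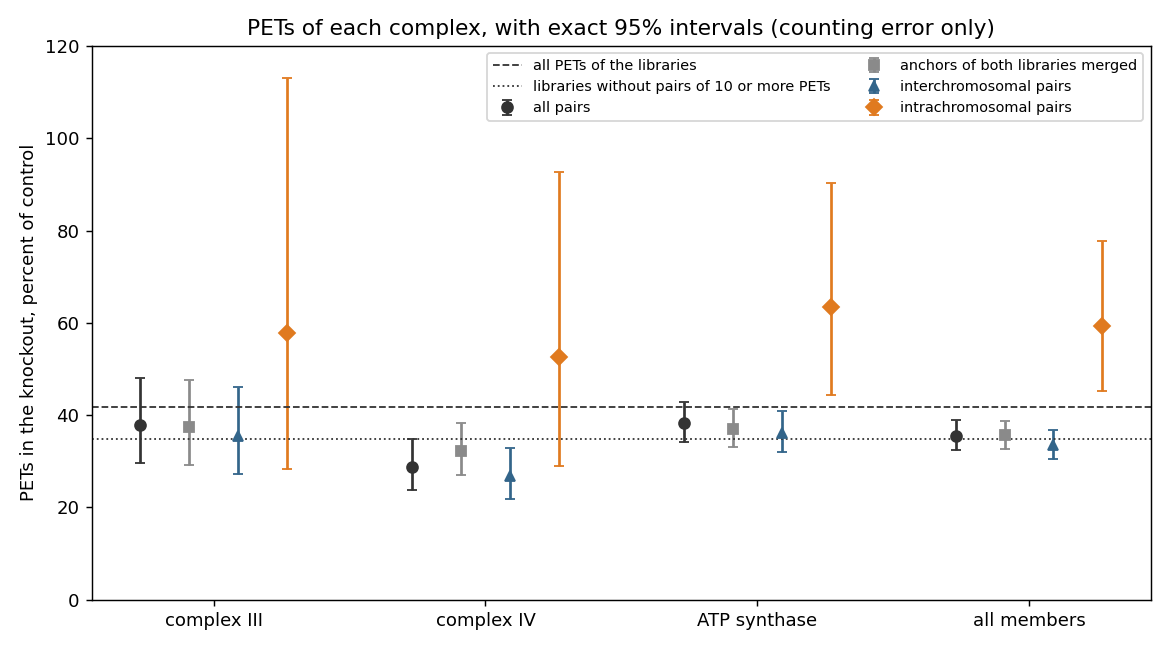
PETs in the knockout library as a percent of control (vertical axis) for each complex and for all members, counted over all pairs, with the anchors of both libraries merged first, and between or within chromosomes. Bars are exact 95% intervals that cover counting error only, the dashed line is the value of all PETs (41.8%) and the dotted line that without pairs of 10 or more PETs (34.7%). Complex IV over all pairs (28.8%) lies lowest among the black points, and in each group the value within chromosomes lies above the others, with the widest interval.

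Between the complexes, the odds of a PET coming from the knockout were lower in complex IV than in ATP synthase (odds ratio 0.751, interval 0.600 to 0.936, Fisher's exact test adjusted over 3 pairs of complexes, adjusted p = 0.0305). By the same exact test, complex III did not differ detectably from complex IV (odds ratio 1.31, interval 0.960 to 1.79, adjusted p = 0.130) or from ATP synthase (odds ratio 0.989, interval 0.753 to 1.29, adjusted p = 1). The difference between complex IV and ATP synthase turned on Cox8a, since without that gene the odds ratio was 0.872 (exact p = 0.240). It was also 0.869 (exact p = 0.183) when anchors were first merged over both libraries.

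Cox8a encodes one of the small membrane subunits of complex IV and lies at chr19:7289648-7292106. It had 88 PETs in control and 6 in the knockout, or 6.82% of control (interval 2.44 to 15.4), and in a two-sided exact binomial test against the share of all PETs, adjusted over 12817 genes with PETs, it was called lower (adjusted p = 4.65e-06). The anchors over the gene differed between the libraries. In control cells Cox8a lay in an anchor of 51.2 kb, chr19:7266289-7317464, together with Macrod1, Naa40 and Otub1. In the knockout nearly the same stretch was covered by 3 anchors of 10.2, 17.2 and 23.8 kb, separated by 32 and 99 bases, and only the middle one, with 6 PETs, lay within 1 kb of Cox8a. The flanking anchors held 7 and 15 PETs. Over the whole stretch the knockout thus had 28 PETs against 88, or 31.8% of control (exact interval 20.02 to 49.2), and the gene was no longer called (adjusted p = 0.840).

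**Figure D2:**
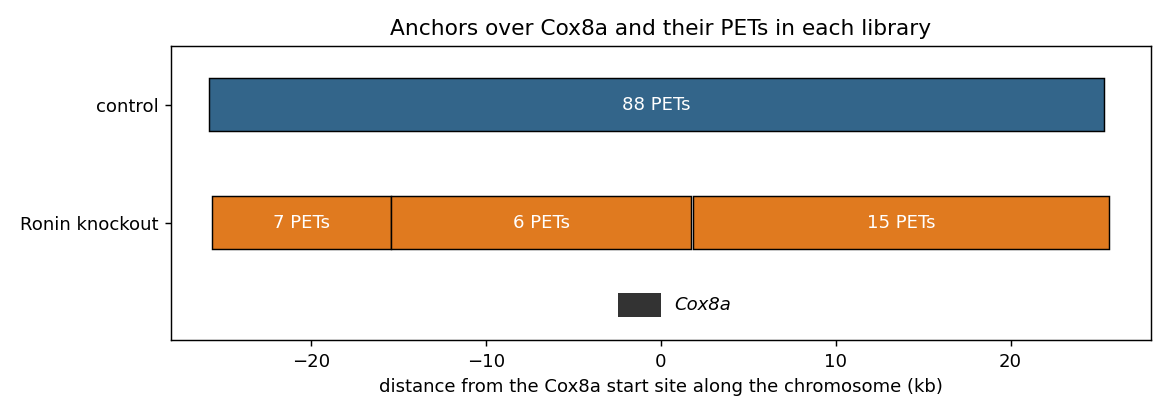
Anchors over the Cox8a gene in the control library (upper bar) and the Ronin knockout library (lower bars), by distance in kb from the start site of the gene along the chromosome, with the PETs of each anchor written in it and the gene drawn in dark gray. Outlined blocks are single anchors. The 51.2 kb control anchor with 88 PETs corresponds to 3 abutting knockout anchors with 7, 6 and 15 PETs.

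Because anchors had been called separately in each library, the comparison was repeated after joining overlapping anchors of both libraries into common regions, a setting chosen after the data were seen. It changed the counts of 11 members. Atp5j2, which encodes subunit f of the Fo part, was the other member called, with 36 control and 3 knockout PETs (8.33%, interval 1.64 to 26.4, exact binomial test, adjusted p = 0.0368). In common regions it had 36 and 8 PETs (22.2%, interval 8.92 to 48.6) and was not called by the exact test (adjusted p = 0.733). At Atp5d, the delta subunit of F1, it was the control library that had 2 anchors where the knockout had 1, and the gene went from 89 to 60 PETs (67.4%) and in common regions from 149 to 60 (40.3%, interval 29.3 to 54.7). Of all 12817 genes, 287 (2.24%) were called lower and 256 (2%) higher with anchors as deposited, and 124 (0.967%) and 70 (0.546%) in common regions. With anchors as deposited 2 of 49 members with PETs were called lower and none higher. In common regions none was called in either direction, while 7 of 49 members (14.3%) and 1260 of 12817 genes (9.83%) had an unadjusted p under 0.05. There complex IV stood at 32.2% of control, complex III at 37.4% and ATP synthase at 36.9%.

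By number, 47 of 49 members with PETs had fewer PETs in the knockout, as did 88.9% of all genes with PETs. After scaling to equal totals, 35 of 49 (71.4%) had a lower share in the knockout against 60.7% of all genes. This count covered 7 of 9 members of complex III, 18 of 22 of complex IV and 9 of 17 of ATP synthase. With totals taken without pairs of 10 or more PETs, 29 of 49 members (59.2%) and 48.8% of all genes had a lower share, 15 of 22 in complex IV and 8 of 17 in ATP synthase. With totals of PETs within chromosomes, 39 of 49 members (79.6%) and 68.5% of all genes had a lower share, among them 13 of 17 in ATP synthase. Counting only pairs within chromosomes, 19 of 44 members (43.2%) had a lower and 25 a higher share, against 57.5% of 9735 genes lower. Scaled to all PETs, the log2 ratio (knockout over control, pseudocount 0.5) had a median of -0.33 over members and -0.17 over all genes.

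**Figure D3:**
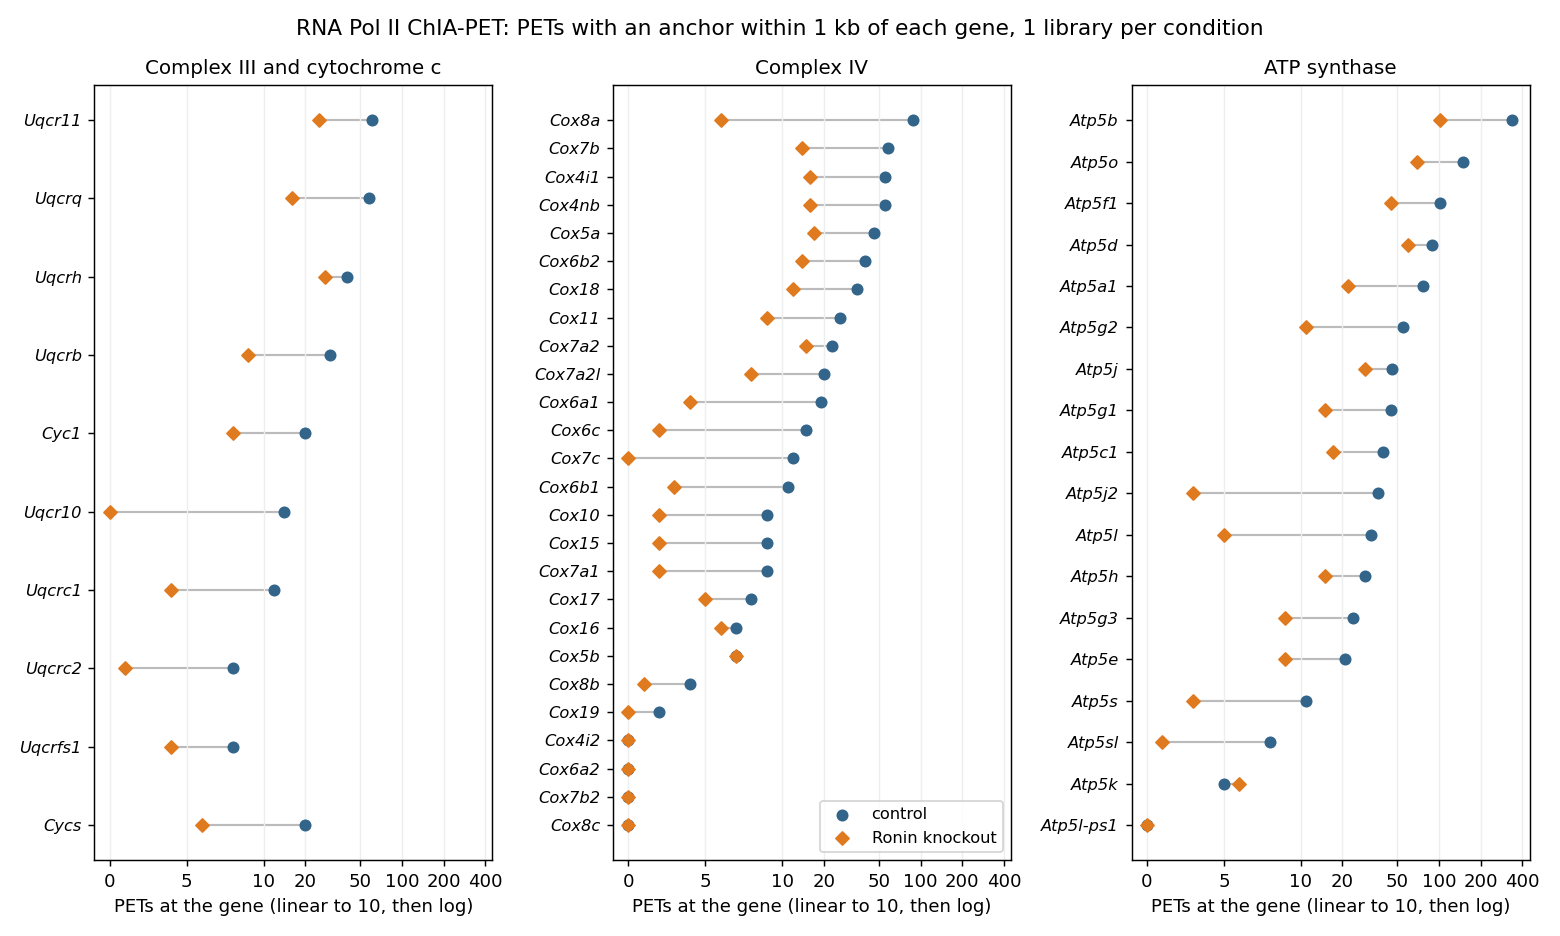
PETs at each of the 54 members in control (circles) and Ronin knockout (diamonds) cells, by complex and ordered by control PETs, with 1 library per condition. The horizontal axis is linear up to 10 PETs and logarithmic above. Diamonds lie to the left of circles in all members with PETs except Cox5b (7 in both) and Atp5k (5 and 6).

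In complex III, Uqcr11, a small accessory subunit at chr10:79865742-79869575, had the most control PETs (61) and had 25 in the knockout (41.0%, interval 24.7 to 66.3). Uqcrq, another small subunit, had 58 and 16 PETs (27.6%), and Uqcrh, the hinge protein that helps cytochrome c to dock, had 40 and 28 (70.0%, interval 41.6 to 116). The ratio was lower at Uqcrq than at Uqcrh by Fisher's exact test (p = 0.0177), but not past 0.05 after adjustment over the 4 pairs of genes compared in this way, which were chosen after their values were seen (adjusted p = 0.0709). Uqcrb, which encodes a subunit near the ubiquinone site, had 30 and 9 PETs, but 18 of its control PETs came from a single pair of anchors on different chromosomes. Cyc1 (cytochrome c1) had 20 and 8 PETs and Uqcrfs1 (the Rieske iron-sulfur protein) 8 and 4. The core proteins Uqcrc1 and Uqcrc2 had 12 and 4 and 8 and 1 PETs. Uqcr10 had 14 control PETs and no knockout anchor within 1 kb (upper limit of the interval 30.1%). Cycs, cytochrome c itself, had 20 control and 6 knockout PETs (30%, interval 9.86 to 77.5).

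In complex IV, the PETs after Cox8a were at Cox7b (58 and 14), Cox4i1 (55 and 16) and Cox5a (46 and 17), which encode nuclear subunits around the catalytic core. Their values as percent of control were 24.1 (interval 12.4 to 43.8), 29.1 (15.6 to 51.5) and 37.0 (19.9 to 65.7). Between Cox5a and Cox7b, the outer values, the odds ratio was 1.53 (interval 0.633 to 3.73, Fisher's exact test, adjusted p = 0.313). Cox4nb had the same counts as Cox4i1 because it lies next to it, head to head, in the same 31.8 kb anchor. It was taken by its symbol and is not a subunit. Cox6b2, an isoform known from testis, had 40 and 14 PETs at an anchor that also held Fam71e2 and Suv420h2, so these PETs cannot be given to one of the genes. Cox7c went from 12 PETs to none (upper limit 36.0%), and Cox6c from 15 to 2. Cox7a2 (23 and 15) and Cox5b (7 and 7) had the highest ratios among structural subunits, 65.2% (interval 31.6 to 130) and 100% (29.9 to 334), and neither excludes the library value.

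The assembly factors of complex IV had few PETs. They summed to 96 in control and 36 in the knockout over 7 genes (37.5%, interval 24.8 to 55.5), against 354 and 92 over 11 structural subunits (25.99%, interval 20.4 to 32.8). The structural sum includes the 88 and 6 PETs of Cox8a, whose control anchor was split in the knockout. Without Cox8a, complex IV as a whole stood at 33.5% (interval 27.4 to 40.7). Cox18, which inserts a mitochondrially encoded subunit into the membrane, had the most (35 and 12), followed by Cox11 (26 and 9), which delivers copper. Cox10 and Cox15, enzymes of heme A synthesis, had 9 and 2 PETs each, Cox17, a copper chaperone, 8 and 5, Cox16 7 and 6, and Cox19 2 and 0. Of the tissue-restricted isoforms, Cox6b2, Cox7a1 (9 and 2) and Cox8b (4 and 1) had PETs. Cox4i2, Cox6a2, Cox7b2 and Cox8c had none in either library, as had Atp5l-ps1, which is named as a pseudogene of an ATP synthase subunit.

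The remaining complex IV genes had intermediate counts. Cox7a2l, a relative of Cox7a2 known from supercomplexes, had 20 and 8 PETs, Cox6a1 19 and 4, and Cox6b1 11 and 3. Over members with control PETs, 3 of 49 (Uqcr10, Cox7c and Cox19, 6.12%) had none in the knockout, against 11.2% of all genes with control PETs. These 3 had no knockout anchor within 1 kb, and the knockout library had 17539 anchors against 27757 in control. PETs were counted only between anchors, so a count of none cannot be read as the absence of contacts.

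In ATP synthase, Atp5b, the catalytic beta subunit at chr10:127520329-127527447, had the most PETs of all members. It had 334 in control and 102 in the knockout (30.5%, interval 24.2 to 38.2, exact binomial test, adjusted p = 0.0978). Its anchor spanned 74.7 kb in control and 73.0 kb in the knockout and also held Baz2a, Naca, Prim1 and Ptges3, so the value belongs to the locus. The other F1 genes were Atp5d, Atp5a1 (alpha, 76 and 22 PETs), Atp5c1 (gamma, 39 and 17) and Atp5e (epsilon, 21 and 9). The F1 genes summed to 559 and 210 PETs (37.6%, interval 31.9 to 44.1) and those of Fo, the stalks and factors to 543 and 211 (38.9%, interval 33.0 to 45.6).

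Among the Fo and stalk genes, Atp5f1 (subunit b) had 102 and 45 PETs (44.1%) and Atp5o 150 and 69 (46.0%). The Atp5o value comes with a limit: its gene model in this annotation runs from 91684643 to 91931932 on chromosome 16, over 16 control anchors, and the anchors near its start site, beside the Ronin-binding motif printed above, had 12 control and 8 knockout PETs. The 3 genes of the c ring, Atp5g1, Atp5g2 and Atp5g3, had 45 and 15, 55 and 11, and 24 and 9 PETs. Atp5g2 was the lowest of them (20%, interval 9.44 to 38.6, exact binomial test, adjusted p = 0.241), with intervals of 17.3 to 60.9 at Atp5g1 and 15.3 to 83.6 at Atp5g3. This order depends on the anchors counted. At anchors within 1 kb of the start site Atp5g1 had 27 control and 4 knockout PETs, while Atp5g2 and Atp5g3 kept their counts. By Fisher's exact test neither Atp5g1 (odds ratio 1.66, interval 0.640 to 4.43, adjusted p = 0.313) nor Atp5g3 (odds ratio 1.86, interval 0.598 to 5.71, adjusted p = 0.313) was past 0.05 against Atp5g2. Atp5l (subunit g) had 32 and 5 PETs and Atp5h (subunit d of the stalk) 29 and 15. Atp5j (coupling factor 6) had 46 and 29 PETs (63.0%, interval 38.2 to 103) in an anchor that it shares with Gabpa, the gene of the ETS factor named above, and with Jam2. The smaller counts were 11 and 3 at Atp5s, 8 and 1 at Atp5sl, which was grouped here by its symbol only, and 5 and 6 at Atp5k (subunit e), the only member with more PETs in the knockout.

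The number of PETs rose with the width of the anchors. The authors called the anchors as peaks of PETs in the same library. Width and number of PETs are therefore not independent, and part of this relation may be built in. Over 49 members, Pearson's r between log2 of the summed anchor width and log2 of control PETs was 0.895 and Spearman's rho 0.892, a description of genes of 1 library, several of which share anchors. Widths ran from 2.16 kb at Cox19 to 110.7 kb at Atp5o, with a median of 18.1 kb, against 13.8 kb over all genes with control PETs. Per kb of anchor, the members had a median of 1.44 control PETs and all genes 1.16, and 0.514 and 0.528 knockout PETs. On this scale Atp5b (4.47 PETs per kb) and Atp5a1 (3.53) were highest in ATP synthase, Cox6b2 (3.25) and Cox7c (2.91) in complex IV and Uqcrb (2.54) in complex III. The Uqcrb value rests on 1 pair of anchors that gave 18 of its 30 control PETs, and Uqcr11 (2.04) came next in complex III. The medians of the complexes were close, at 1.52 in complex III, 1.35 in complex IV and 1.35 in ATP synthase. The larger raw counts of ATP synthase genes thus went with wider anchors, whose median was 22.8 kb against 12.02 kb in complex III and 14.6 kb in complex IV. Of the 49 members, 36 shared a control anchor with another protein-coding gene.

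**Figure D4:**
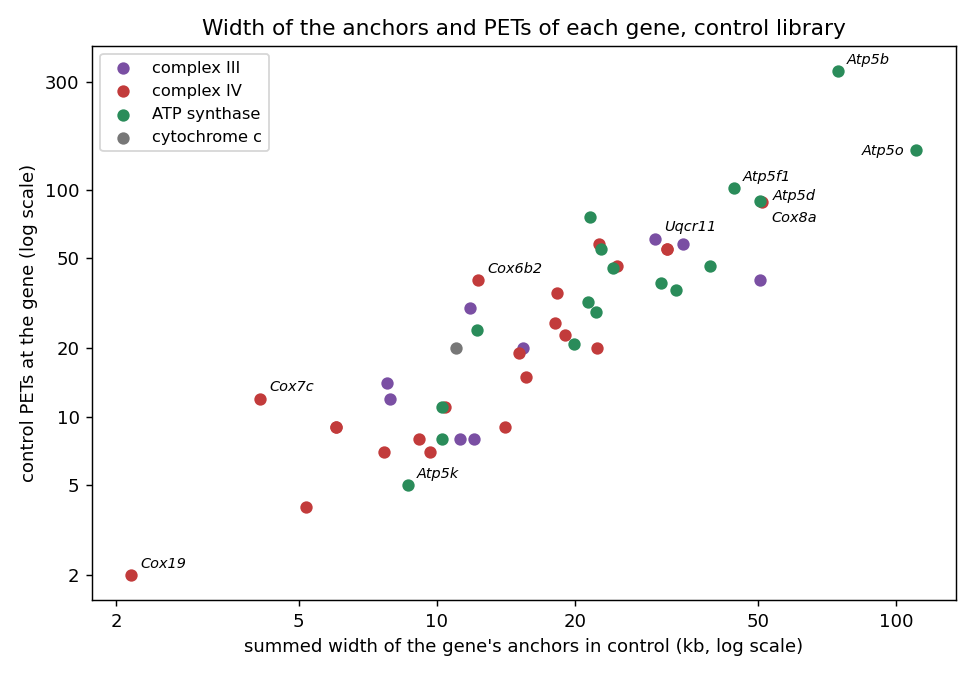
Control PETs at each of the 49 members with control PETs (vertical axis, log scale) against the summed width of the anchors within 1 kb of the gene (horizontal axis, kb, log scale), colored by complex. Genes with wider anchors had more PETs (Spearman's rho 0.892), from Cox19 with 2 PETs in 2.16 kb to Atp5b with 334 in 74.7 kb.

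Most contacts of these genes joined different chromosomes and rested on 1 PET. The paper cites more noise in interactions between chromosomes and left those of its Ronin data out of later analyses. A single PET counted here may therefore be noise and not a contact in the cell. Interchromosomal pairs held 1723 of 1873 control PETs (92.0%, interval 90.7 to 93.2) and 577 of 666 knockout PETs (86.6%, interval 83.8 to 89.1), a share that was lower in the knockout (Fisher's exact test, p = 0.000102). For all pairs of the libraries the shares were 84.2% and 81.4%, and 89.9% and 88.0% without pairs of 10 or more PETs. By complex the share went from 92.4% to 86.2% in complex IV (exact test adjusted over 3 complexes, adjusted p = 0.0457), from 92.3% to 87.2% in ATP synthase (adjusted p = 0.00829) and from 89.6% to 84.2% in complex III (adjusted p = 0.192). In absolute terms, PETs within chromosomes went from 150 to 89 (59.3%, interval 45.1 to 77.6) and those between chromosomes from 1723 to 577 (33.5%, interval 30.4 to 36.8), against 49.2% and 40.4% for all PETs of the libraries. Of the member pairs, 98.4% in control and 98.3% in the knockout had a single PET, close to the 98.3% and 97.9% of all pairs. The paper asked for 3 independent PETs for high confidence, and 2 control and 1 knockout member pairs had 3 or more.

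Few contacts were seen in both libraries. Of 1826 control pairs, 27 (1.48%, exact binomial interval 0.977 to 2.14) had a knockout pair with both anchors overlapping, against 1.36% of all pairs, and 14 of these 27 belonged to the wide Atp5b anchor. The share was 6.29% (9 of 143) for pairs within chromosomes, against 4.82% of all such pairs. Among pairs of at least 2 PETs it was 16.7% (5 of 30) against 26.3% of all such pairs (582 of 2214). With so few PETs per pair, a control contact missing from the knockout cannot be read as lost.

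Within 1 Mb the members had 47 pairs in control and 31 in the knockout. Contacts seen in both libraries joined Atp5b to an anchor that held Cs, the gene of citrate synthase (285 and 260 kb). That anchor also held Cnpy2 and Pan2 in both libraries, so its PETs cannot be given to one of the genes. A knockout anchor at Ankrd52 (314 kb), joined to Atp5b by 1 PET, overlapped the same control anchor. Other such contacts joined Uqcrq to the anchor of Hspa4 (136 and 137 kb), Atp5g2 to that of Atf7 (53.0 and 46.5 kb) and Atp5j to that of App (338 and 337 kb). Cox18 met its neighbor Ankrd17 at 2 anchors, 22.1 and 128 kb away in control and 26.4 and 130 kb in the knockout. Every one of these contacts had 1 PET in each library except Cox18 with the farther Ankrd17 anchor, which had 2 in control. The anchors of Cox18 themselves also held Ankrd17 in both libraries, so its PETs may join parts of Ankrd17. Atp5j was also joined to Mrpl39, a gene of the mitochondrial ribosome, in both libraries (101 and 118 kb), through anchors that did not overlap. Contacts with 2 PETs in 1 library were Uqcrq with Aff4 (51.9 kb), Atp5d with Cirbp and Efna2 (34.2 kb) and Atp5g3 with Atf2 (23.8 kb) in control, and Atp5d with the anchor of Gpx4 and Polr2e (98.9 kb) and Uqcrc1 with Cdc25a (950 kb) in the knockout, where 2 PETs also joined anchors of Atp5o 9.41 kb apart. The Uqcrq anchor also held Aff4, so those PETs may join parts of Aff4. In the knockout the Atp5d anchor itself held Cirbp and Efna2, so that pair could not be counted there.

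Contacts between different members were single PETs. In control cells the anchor of Atp5j and Gabpa on chromosome 16 was joined to Atp5a1 on chromosome 18 and to Cox5a on chromosome 9, and the Atp5o start-site anchor to Atp5a1. In knockout cells Atp5g1 on chromosome 11 was joined to Cox18 on chromosome 5. The rest joined 2 anchors of the same gene (Atp5g1, Atp5f1 and Atp5o in control, Atp5o and Uqcrh in the knockout). Counting each end of a pair, 14 of 1833 member ends in control (0.764%) faced a member, against 0.717% of all ends at a protein-coding gene, and 6 of 652 (0.920%) against 0.738% in the knockout.

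Other partner classes also lay near the values of all genes. Complex I genes faced 11 of 1833 control member ends (0.600%) against 0.529% of all ends, and 3 of 652 (0.460%) against 0.538% in the knockout. Genes of the cytosolic ribosome faced 3.11% against 3.197% in control and 2.91% against 2.74% in the knockout, those of the mitochondrial ribosome 0.873% against 0.847% and 1.38% against 0.967%, and histone genes 1.42% against 1.36% and 1.38% against 1.33%. Proteasome genes faced 6 ends in control (0.327% against 0.614%) and 5 in the knockout (0.767% against 0.664%), and complex II genes 0 and 1. Ends without a protein-coding gene made up 9.71% against 9.79% in control and 8.90% against 8.84% in the knockout. Only 1 control pair joined a member to the mitochondrial chromosome, among 155 such pairs in the library, and none of 103 in the knockout did.

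The pairs with the most PETs were between chromosomes. Uqcrb was joined by 18 control PETs to an anchor at Fbxo24 and Pcolce (chr5:138053089-138057586), and the anchors share an identical stretch of 100 bp. Atp5d was joined by 8 knockout PETs to an anchor at Cyb5b (chr8:109676214-109680200), which has only 10 PETs in all and shares at most 76 identical bases with the Atp5d anchor. Neither pair was found in the other library. In control cells Atp5b had 3 PETs with the anchor of Frmd8 (identical stretch 108 bp) and 2 each with anchors at Actg1, Hmga1, Rngtt, Rpl23 and Vcp, among others. The partner met by the most members was a 1.38 kb anchor at Gm10800 on chromosome 2, with 12 pairs and 15 PETs over 13 members in control and 7 pairs and 8 PETs in the knockout. That anchor held 9614 control and 7485 knockout PETs in all, so it met genes throughout the library. Pairs whose anchors have 100 or more identical bases in a row made up 33 pairs (57 PETs) in control and 16 (17 PETs) in the knockout, and without them the members stood at 35.7% of control, complex III at 41.7%, complex IV at 28.7% and ATP synthase at 37.9%.

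The other genes of oxidative phosphorylation were counted in the same way. Over all genes with PETs, 60.7% had a lower share, and 2.24% were called lower and 2% higher with anchors as deposited. The calls below used those anchors and are not given over common regions. Complex I (Nduf genes) went from 1381 to 481 PETs over 42 genes with PETs (34.8%, interval 31.3 to 38.7), with 23 lower and 19 higher in share, and with 2 called lower and 1 higher by the exact binomial test. Complex II went from 154 to 57 PETs over 6 genes (37.0%, interval 26.8 to 50.5), with none called. Assembly factors and regulators of the pathway, 19 of 21 with PETs, went from 782 to 356 (45.5%, interval 40.0 to 51.7), with 7 lower and 12 higher in share and none called. Among them Nrf1 had 114 and 28 PETs, Gabpa 55 and 35, Tfam, which packages mitochondrial DNA, 26 and 22, and Surf1, a complex IV assembly factor, 100 and 40. Atpaf1, an assembly factor of F1, had 17 control PETs and none in the knockout. The Ppargc1a and Ppargc1b coactivators had no PETs in either library.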

How the data were processed

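Contacts were measured in 1 control and 1 Ronin knockout library of mouse ESCs. According to the methods and the submitters' processing notes, the authors used cutadapt for linkers, Bowtie 1.1.1 for mapping to mm9 and MACS 1.4.2 for peaks, and merged 2 experiments per condition. The deposited values are whole counts of PETs for each pair of peaks, a signed distance score in bp (read within chromosomes only), and each pair's p-value, also adjusted by Benjamini-Hochberg, used only for the alternative that keeps called interactions (pairs within chromosomes with an adjusted value under 0.05). Because peaks were called separately in each library, the anchors differ in width between them, which can move the PETs of a gene.

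A gene of GENCODE vM1 was given the pairs with an anchor up to 1 kb away. Ratios carry exact conditional binomial intervals (Clopper-Pearson, 95%), complexes were compared by Fisher's exact test, and genes by a two-sided exact binomial test with Benjamini-Hochberg adjustment over all genes with PETs. The test was checked on simulated data. Members and lists were chosen with earlier results of these data known, and the added settings and the promoters other than that of Atp5o after their values were seen. Genes were named by a rule: every member is accounted for, and partners are named for pairs of at least 2 PETs, in both libraries, or among members. Python 3.11.15, numpy 2.4.6, pandas 2.3.3, scipy 1.17.1 and matplotlib 3.10.9 were used.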

Additional observations from a re-analysis of the deposited data

Results flagged for a closer look

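The difference between complex IV and ATP synthase under the same contrast passed its test. The odds of a PET coming from the knockout library were 0.751 times as high in complex IV as in ATP synthase (interval 0.600 to 0.936, Fisher's exact test, adjusted p = 0.0305), with 28.7% against 38.2% of control PETs after leaving out pairs that touch both. Beside it stand the values at Cox8a, where 1 control anchor of 51.2 kb faced 3 knockout anchors. Without Cox8a the odds ratio was 0.872, and over common regions 0.869, neither past the threshold.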

How the results depend on the processing

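Within chromosomes only, the knockout held 59.3% of control PETs over all members, 57.7% in complex III, 52.6% in complex IV and 63.5% in ATP synthase. Among called interactions these values were 63.8%, 57.7%, 55.6% and 70.7%. With at least 2 PETs per pair complex III stood at 14.3% and ATP synthase at 53.7%. Of these PETs, 18 of 28 in complex III in control came from the Uqcrb pair with Fbxo24 and Pcolce, and 8 of 22 in ATP synthase in the knockout from the Atp5d pair with Cyb5b. Over pairs of 2 to 5 PETs, without these, the values were 40% (10 and 4 PETs) and 34.1% (41 and 14 PETs). With member anchors of at most 30 kb complex III stood at 27.98% and complex IV at 35.8%. The cause of the shifts within chromosomes and with narrower anchors was not tested.

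The odds ratio of complex IV against ATP synthase lost its call within chromosomes (0.829), with at least 2 PETs per pair (0.470), over common regions (0.869) and without Cox8a (0.872). That of complex III against complex IV passed 0.05 unadjusted with pairs counted once (1.41) and without the assembly factors (1.41). It also did so without pairs of 10 or more PETs (1.41). All of these settings keep Cox8a, whose control anchor was split in the knockout. Without Cox8a this odds ratio was 1.13 and over common regions 1.16, neither past 0.05 unadjusted. With at least 2 PETs per pair it turned to 0.580. That of complex III against ATP synthase, which is close to 1, turned to 1.08 with pairs counted once, 1.01 over common regions, 1.02 without Cox4nb and Atp5o and 1.07 without pairs of 10 or more PETs, and was 0.270 and past 0.05 with at least 2 PETs per pair, but 1.17 over pairs of 2 to 5 PETs (exact p = 1). That of the members against all other pairs turned to 1.21 within chromosomes, 1.03 with pairs counted once and 1.03 without pairs of 10 or more PETs.

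Within chromosomes 19 members had a lower and 25 a higher share in the knockout, against 5600 and 4135 of all genes, and without scaling 1 had more PETs. Over all genes, an even null share called 5465 lower and 99 higher, the share of PETs within chromosomes 841 lower and 216 higher, pairs within chromosomes alone 17 lower and 30 higher, the share without pairs of 10 or more PETs 105 lower and 373 higher, Atp5d among the latter, and common regions 124 lower and 70 higher. Of 49 members, the even null share called 27 lower. The share of PETs within chromosomes called 4 lower, namely Atp5b, Atp5g2, Atp5j2 and Cox8a. In the exact binomial test, Cox8a lost its call at a window of 5 kb (adjusted p = 0.244), within chromosomes (adjusted p = 1) and over common regions (adjusted p = 0.840). Atp5j2 lost its call within chromosomes (adjusted p = 1), with the share without pairs of 10 or more PETs (adjusted p = 0.158) and over common regions (adjusted p = 0.733), in the same exact test. Control pairs were found again at 16.7% with at least 2 PETs, against 26.3% of all such pairs, and at 6.29% within chromosomes. The Ronin-binding motif was found in the control anchors of 3 members (6.12%, against 3.57% of genes with control PETs) and, with 1 mismatch, in 4 promoters. The anchor shares were not adjusted for width, and member anchors were wider (median 18.1 against 13.8 kb over all genes).

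Common regions, the leaving out of Cox8a, of Cox4nb and Atp5o and of pairs of 10 or more PETs, and pairs of 2 to 5 PETs were chosen after the data were seen. No paired analysis was possible because each condition has 1 library. The median member had 24 control PETs, so intervals of single genes are wide.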
